A study of Mus musculus with 6 samples.

Results

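C-type lectins and paired myeloid receptors are surface proteins with which myeloid cells read microbes, dying cells and other cells. Many of the activating members have no signalling tail of their own and depend on small transmembrane adaptors, Tyrobp (also called DAP12), Hcst (DAP10) or the Fc receptor gamma chain Fcer1g, whose phosphorylated tyrosines recruit the kinase Syk or phosphatidylinositol 3-kinase. The inhibitory members carry tyrosine motifs that recruit the phosphatases Ptpn6, Ptpn11 or Inpp5d, and activating and inhibitory members of a family often lie side by side in the genome. In bone marrow these receptors are known as markers and regulators of monocytes, neutrophils, eosinophils, mast cells and natural killer (NK) cells.

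Expression of these genes was compared between MLL-AF9/Mn1null and MLL-AF9/Mn1wt mouse bone marrow cells, 3 samples each, on 1 Affymetrix array per sample. MLL-AF9, present in both groups, is a fusion protein that drives acute leukaemia. In Mn1null cells the gene of the transcriptional cofactor Mn1 had been deleted by CRISPR-Cas9, and in Mn1wt cells it was intact. Per the labels, cells of both groups had been sorted, had received a control vector for enhanced green fluorescent protein and were grown with mouse interleukin 3, human interleukin 6 and mouse stem cell factor. Strain, age, the number of clones or animals and how MLL-AF9 was introduced were not stated in the labels. Nothing says that replicates came from separate cultures, so p-values set the group difference only against the spread of these samples. That spread may be technical, and the p-values need not hold for other cultures or clones.

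The genes were chosen by symbol, as those starting with Clec, Cd300, Siglec, Pilr, Lilr, Pira, Pirb, Trem, Klr, Sirpa or Sirpb, together with Cd33, Cd22, Tyrobp and Hcst, where a probe set named 1 gene. This gave 70 genes of 18193 on the array, read by 99 of 45101 probe sets. Each gene was represented by its brightest probe set. Of the 70 genes, 47 had a mean over the 6 arrays of at least 4.07 on the log2 scale, the 30th percentile of all probe sets, and were tested. Of these 47, 2 (Klrk1 and Sirpb1a) passed with 1 group mean under that level. The 23 genes left out were 13 NK lectin-like receptor genes, 8 C-type lectin genes, Cd300lg and Treml4.

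The 6 arrays had medians of 5.17 to 5.23, and the correlation over the genes tested was 0.997 to 0.998 within a group and 0.968 to 0.969 between groups. Bacterial labelling controls differed between the groups, their 5′ probe sets averaging 6.47 ± 0.059 in Mn1null and 7.32 ± 0.10 in Mn1wt (log2, SD, n = 3 each). Their 3′ probe sets averaged 8.45 in Mn1null and 8.75 in Mn1wt, and hybridisation controls 11.15 and 11.25. As the labelling controls differed with the group, sample handling and genotype cannot be told apart in the differences below. Of 15 monocyte and macrophage marker genes measured, 3 were higher and 9 lower in Mn1null, and their summed linear signal was 6649 to 6855 in Mn1null against 21306 to 21978 in Mn1wt. The sum over 12 mast cell and basophil markers was 16415 to 17019 in Mn1null against 5280 to 5495 in Mn1wt, with 6 of 11 tested higher (Cpa3, Hdc, Ms4a2, Gata2, Fcer1a and Mcpt8), Kit lower by -0.17 and Tpsb2, Tpsab1, Cma1 and Mitf not called. The sum over 4 eosinophil markers was 1361 to 1404 in Mn1null against 179 to 201 in Mn1wt. Sums in Mn1null over those in Mn1wt were 3.35 for megakaryocyte markers (4 of 9 higher, 3 lower), 2.81 for stroma and endothelium (2 of 8 higher) and 2.71 for NK cells (2 of 7 tested higher). Of all genes tested, 23.2% were higher and 25.6% lower. The shares higher for stroma and endothelium (25%) and NK cells (28.6%) were near that. Their sums rose mainly through Pecam1 and Pdgfrb, and through Nkg7 and Cd244a. The ratio of sums was 0.97 for neutrophil markers, though 8 of 13 were higher and 3 lower, among them Ngp (3.28) and Mmp8 (-4.53). It was 0.84 for dendritic cell markers (3 of 13 higher, 4 lower) and 0.94 for erythroid markers (2 of 5 tested higher, 1 lower). For B cell markers it was 0.98 (1 of 6 tested higher, 1 lower) and for T cell markers 1.01 (0 of 4 tested called). These sums weigh bright genes most. In bulk RNA, fewer cells of a type and less RNA per cell cannot be told apart, and the part of these shifts in the results below was not tested.

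Of the 47 genes tested, 18 were higher and 12 lower in Mn1null by limma (adjusted p under 0.05), which is 63.8% called against 48.8% of all 14680 genes tested. The background share was 23.2% for higher and 25.6% for lower calls. Among the genes called, 6 rose by 2-fold or more (Siglecf, Clec10a, Hcst, Clec4a2, Clec2i and Clec2d; background 3.77%) and 5 fell by as much (Clec7a, Clec4n, Pilra, Trem2 and Clec5a; background 2.3%). Together they were 23.4% of those tested, against 6.08% of all genes. No overlap between the values of the 2 groups was seen for 33 genes (70.2%), against 57.7% of all genes. The median difference was 0.08 on the log2 scale, against -0.01 over all genes tested.

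**Figure D1:**
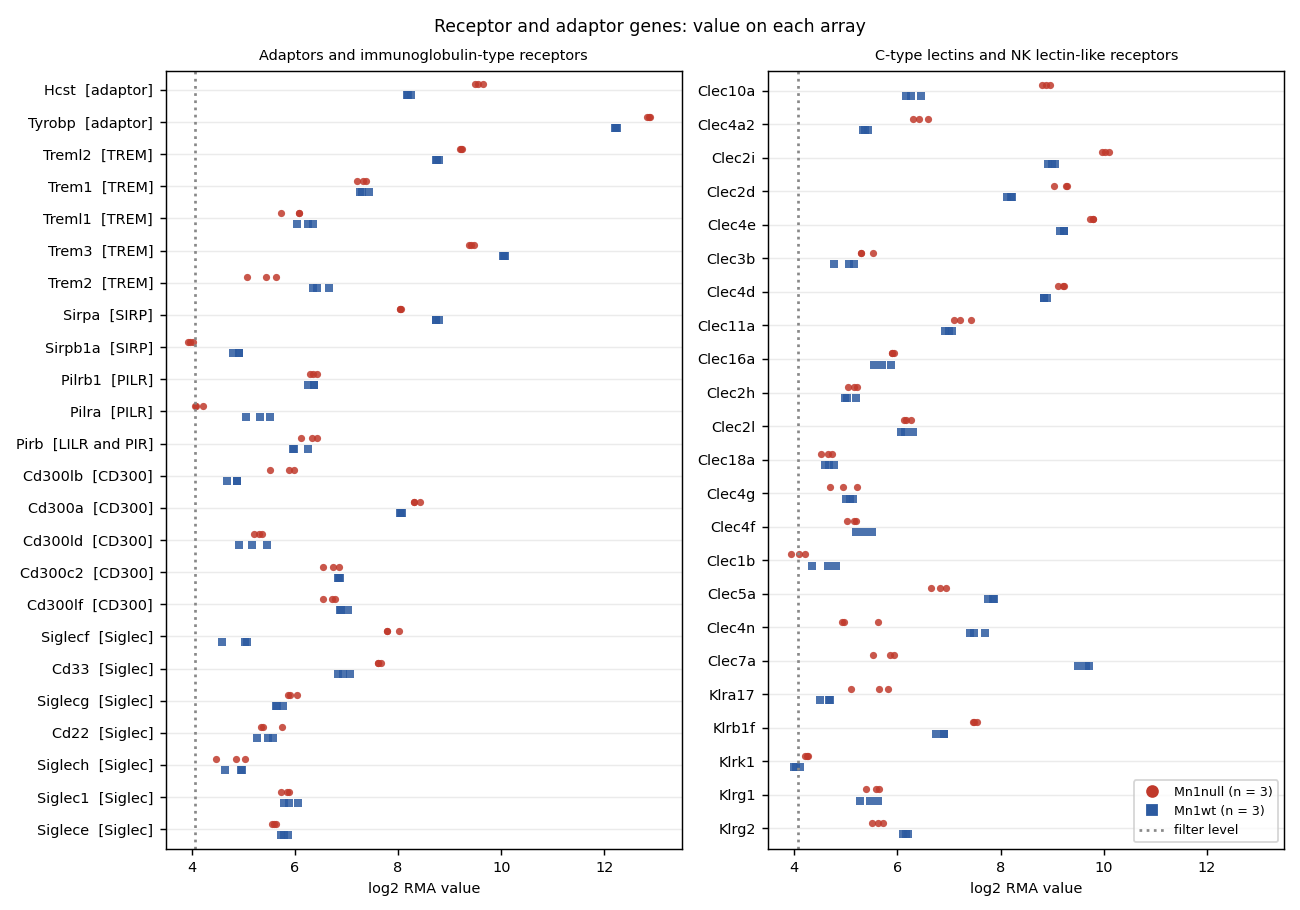
Log2 RMA value (x axis) of each receptor and adaptor gene tested on each array, with the 3 Mn1null arrays as red circles above the 3 Mn1wt arrays as blue squares; the dotted line marks the filter level of 4.07. Siglecf and Clec10a lie far to the right in Mn1null and Clec7a and Clec4n far to the left, while most genes differ by much less.

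The genes with the strongest changes for which RefSeq promoters (build GRCm38.p6, 250 bases before to 50 after the gene start) were at hand are shown first, since these windows belong to the genes on which the results below turn. They are Siglecf (chr7:43351091-43351390, plus strand) and Hcst (chr7:30419805-30420104, minus strand), which rose, and Clec7a (chr6:129472730-129473029, minus strand, the first of 2 entries) and Pilra (chr5:137836229-137836528, minus strand), which fell. Capitals mark matches on either strand to words of 3 factor families that act in blood cells. For the myeloid factor PU.1 the word searched was GAGGAA. For GATA factors the letters of the search were AGATAA. For RUNX factors they were, in this search, TGTGGT. No word contains another.
Siglecf: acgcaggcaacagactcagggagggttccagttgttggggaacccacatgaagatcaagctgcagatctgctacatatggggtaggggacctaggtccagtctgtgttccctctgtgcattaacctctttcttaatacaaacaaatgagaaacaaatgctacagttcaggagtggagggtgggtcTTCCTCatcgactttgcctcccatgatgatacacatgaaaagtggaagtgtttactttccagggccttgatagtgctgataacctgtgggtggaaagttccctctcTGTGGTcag
Hcst: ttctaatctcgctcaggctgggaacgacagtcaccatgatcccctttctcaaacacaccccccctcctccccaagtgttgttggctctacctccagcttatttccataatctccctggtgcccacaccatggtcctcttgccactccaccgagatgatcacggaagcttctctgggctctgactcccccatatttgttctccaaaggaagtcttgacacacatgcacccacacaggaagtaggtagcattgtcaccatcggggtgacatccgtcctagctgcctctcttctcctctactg
Clec7a: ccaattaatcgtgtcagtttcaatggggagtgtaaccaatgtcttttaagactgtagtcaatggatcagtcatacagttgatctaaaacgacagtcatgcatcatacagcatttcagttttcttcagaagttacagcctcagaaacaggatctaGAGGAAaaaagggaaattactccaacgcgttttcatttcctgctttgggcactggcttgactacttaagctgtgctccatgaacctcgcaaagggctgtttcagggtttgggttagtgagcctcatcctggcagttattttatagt
Pilra: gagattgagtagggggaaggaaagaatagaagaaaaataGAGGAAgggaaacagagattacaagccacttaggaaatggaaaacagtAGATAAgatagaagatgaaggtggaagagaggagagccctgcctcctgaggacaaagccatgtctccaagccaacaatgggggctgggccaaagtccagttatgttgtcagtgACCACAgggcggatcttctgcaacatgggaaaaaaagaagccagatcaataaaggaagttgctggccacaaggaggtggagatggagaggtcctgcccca
GAGGAA or its complement stood in the windows of Siglecf, Clec7a and Pilra, TGTGGT in those of Siglecf and Pilra, and AGATAA in that of Pilra. The Hcst window held none of these letters. Of the 70 genes, 57 had a promoter entry, and GAGGAA was present in 32 of them (56.1%), against 28.3% of the 27025 promoters in the table and 27.0% of the 11790 that belong to tested genes. TGTGGT was present in 31.6%, against 16.9% of all and 13.1% of tested promoters. AGATAA was present in 12.3%, close to the 11.4% of all promoters, with 7.1% among tested genes. The 57 include genes that were not tested. GAGGAA was present in 7 of 14 promoters of genes that rose without overlap and in 7 of 9 of genes that fell without overlap. In the same 2 groups TGTGGT was present in 4 of 14 and 3 of 9, and AGATAA in 1 of 14 and 2 of 9. Members of a family descend from common ancestors, so their promoters are not independent, and a match is a description of letters and not a site.

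Both adaptor genes rose in Mn1null. Hcst, the adaptor that couples the receptor NKG2D (Klrk1) to phosphatidylinositol 3-kinase, read 9.50, 9.54 and 9.65 on the 3 Mn1null arrays and 8.17, 8.26 and 8.19 on the 3 Mn1wt arrays. The groups lay well apart, with a difference of 1.36 ± 0.059 (log2, SE, adjusted p = 3.95e-06), or 2.56-fold. Tyrobp, which carries an activating tyrosine motif for Syk, read 12.87, 12.83 and 12.88 in Mn1null against 12.20, 12.24 and 12.23 in Mn1wt, a rise of 0.64 ± 0.043 (adjusted p = 2.97e-05). The 2 genes are immediate neighbours on chromosome 7 in the RefSeq gene table (assembly GRCm38.p6). The third adaptor, Fcer1g, which is also the signalling chain of the high-affinity IgE receptor, is no member by symbol but rose alongside by 1.17 ± 0.053, to 12.56 ± 0.040 in Mn1null against 11.39 ± 0.066 in Mn1wt (SD, n = 3 each, adjusted p = 4.81e-06).

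Receptors known to use these adaptors were next considered. Of 10 tested receptor genes listed as Tyrobp partners, 2 were higher and 4 lower, 4 were not called, and the median was -0.06. A call in 6 of 10 is near the 48.8% of all genes. Clec5a, Trem2, Trem3 and Sirpb1a fell and Cd300lb and Klrk1 rose, and Sirpb1a and Klrk1 are the genes with 1 group mean under the filter level. Of 3 tested Fcer1g partners, the lectin genes Clec4e and Clec4d rose and Clec4n fell. All 3 were thus called, against 48.8% of all genes, but they are few. Tyrobp and Fcer1g were thus higher in the same arrays in which their listed partners moved both ways, also with Sirpb1a and Klrk1 left aside. Clec5a, Trem2, Trem3 and Clec4n were lower there, and Cd300lb, Clec4e and Clec4d were higher.

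TREM receptors recognise lipids, nucleic acids and debris on myeloid cells. Of 5 tested, 1 rose and 2 fell (60% called, near the 48.8% of all genes). Trem2, a lipid receptor of macrophages, read 5.44, 5.07 and 5.63 in Mn1null against 6.36, 6.66 and 6.42 in Mn1wt. The groups did not overlap, the difference was -1.10 ± 0.149 (adjusted p = 7.88e-04), and it rested on a probe set whose ID marks it as reading several transcripts. The other probe set of Trem2 lay near the filter level in both groups, at 4.33 ± 0.11 in Mn1null and 4.35 ± 0.027 in Mn1wt (SD, n = 3 each), a difference of -0.02 (adjusted p = 0.888 over all probe sets), and the average of both differed by -0.56. Trem3, an activating mouse receptor that pairs with Tyrobp, read 9.41, 9.37 and 9.47 in Mn1null and 10.04, 10.07 and 10.06 in Mn1wt, a fall of -0.64 ± 0.046 (adjusted p = 4.07e-05). Its direct neighbour Trem1, an amplifier of inflammation in neutrophils and monocytes, differed by -0.04 (95% interval -0.20 to 0.12). Treml2, found on neutrophils and B cells, rose by 0.46 ± 0.044 (adjusted p = 1.48e-04), and 2 of its 4 probe sets passed, with an average of 0.24 over all 4. Treml1, a platelet receptor, differed by -0.26 (95% interval -0.54 to 0.02, adjusted p = 0.116).

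SIRP and PILR are paired families, each with inhibitory and activating members. Sirpa, the inhibitory receptor for the "don't eat me" ligand Cd47, read 8.04, 8.04 and 8.06 in Mn1null against 8.73, 8.74 and 8.80 in Mn1wt. Its fall of -0.71 ± 0.044 (adjusted p = 2.04e-05) was matched by its other probe sets at -0.64 and -0.50, and both of these passed as well. The ligand gene Cd47 differed by 0.03 (95% interval -0.08 to 0.14). Sirpb1a, an activating relative that signals through Tyrobp, read 3.93, 3.97 and 4.02 in Mn1null and 4.91, 4.80 and 4.92 in Mn1wt (difference -0.90 ± 0.054, adjusted p = 1.71e-05). All 3 Mn1null values lay under the filter level of 4.07. Pilra, an inhibitory receptor for sialylated proteins, read 4.21, 4.09 and 4.07 in Mn1null and 5.33, 5.06 and 5.52 in Mn1wt, a fall of -1.18 ± 0.115 (adjusted p = 1.62e-04) that also ended at the filter level. Its activating neighbour Pilrb1 differed by 0.02 (95% interval -0.12 to 0.17).

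**Figure D2:**
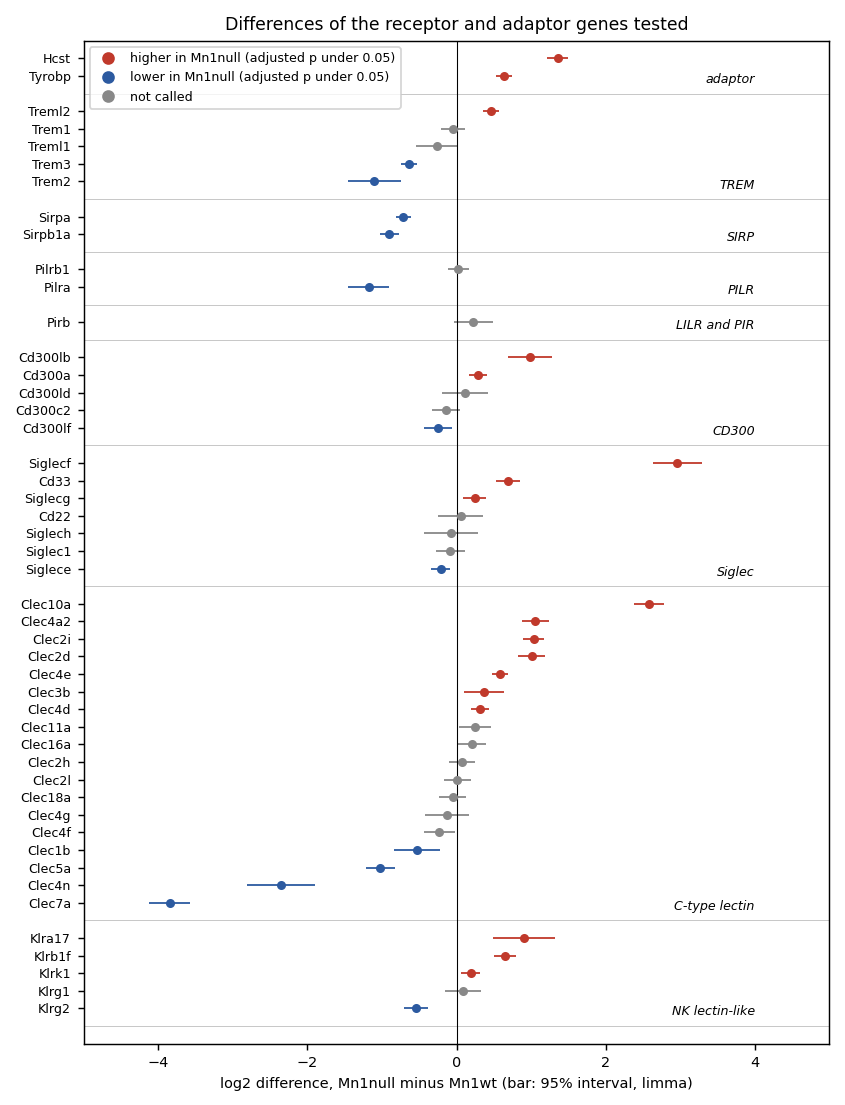
Log2 difference of Mn1null minus Mn1wt (x axis) with its 95% interval from limma for the 47 genes tested, by family; red marks higher, blue lower and grey not called. Both adaptors lie right of 0 and both SIRP genes left of it, and the other families with several genes called hold genes on each side.

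CD300 receptors bind lipids and are clustered on chromosome 11. Cd300lb, an activating member that pairs with Tyrobp, read 5.98, 5.51 and 5.88 in Mn1null against 4.68, 4.88 and 4.87 in Mn1wt, without overlap and with a difference of 0.98 ± 0.126 (adjusted p = 5.99e-04). Its neighbour Cd300a, an inhibitory receptor of mast cells and other myeloid cells, rose by 0.29 ± 0.050 (adjusted p = 0.00247), and its other probe set rose too. Cd300lf, also inhibitory, fell by -0.25 ± 0.077 (adjusted p = 0.0323), which no longer passed without any of 4 arrays. Cd300ld and Cd300c2 differed by 0.11 and -0.14 and did not pass.

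Siglecs are sialic acid receptors, most of them inhibitory. With 7 genes tested, 3 rose and 1 fell (57.1% called, near the 48.8% of all genes). Siglecf, the mouse eosinophil Siglec, had the largest rise of all 47 genes. It read 8.01, 7.78 and 7.78 in Mn1null against 5.07, 4.58 and 5.03 in Mn1wt, a 7.79-fold difference (2.96 ± 0.141, adjusted p = 6.00e-06). The eosinophil granule genes Prg2 and Epx were higher in the same arrays by 3.51 and 2.63, the eosinophil receptor gene Il5ra by 0.66, and Ccr3, a defining chemokine receptor of mature eosinophils, lay under the filter level at 3.09 in Mn1null and 3.08 in Mn1wt. Cd33, a myeloid surface marker, read 7.61, 7.67 and 7.61 in Mn1null and 6.83, 7.06 and 6.93 in Mn1wt, a rise of 0.69 ± 0.066 (adjusted p = 1.47e-04). Siglecg rose by 0.24 (adjusted p = 0.0193) and Siglece, an inhibitory Siglec of neutrophils and macrophages, fell by -0.21 ± 0.054 (adjusted p = 0.0156). Both calls were lost with an intensity trend and robust variance and without either of 2 (Siglece) or any of 3 (Siglecg) arrays. Siglecf and Siglecg are immediate neighbours on chromosome 7, and Siglecg changed much less. The B cell gene Cd22 differed by 0.06, the plasmacytoid dendritic cell gene Siglech by -0.07 and the macrophage gene Siglec1 by -0.08, with groups that overlapped.

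Pirb, an inhibitory receptor for MHC class I, was the one LILR or PIR gene read by a probe set of its own. It differed by 0.23 ± 0.109 and did not pass (adjusted p = 0.131), with groups that overlapped at 6.42, 6.12 and 6.33 in Mn1null and 5.96, 5.98 and 6.26 in Mn1wt. Leaving out Mn1wt replicate 3 gave a difference of 0.32, which passed (adjusted p = 0.0325).

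C-type lectins showed the widest range of the families, with 7 of 18 genes higher and 4 lower (61.1% called, against 48.8% of all genes). Clec7a encodes Dectin-1, the receptor for fungal beta-glucan on macrophages, monocytes and dendritic cells. It read 5.53, 5.94 and 5.86 in Mn1null against 9.72, 9.65 and 9.50 in Mn1wt, the largest fall of all 47 genes at 14.4-fold (-3.85 ± 0.115, adjusted p = 8.76e-07). Clec4n encodes Dectin-2, which binds fungal mannans and signals through Fcer1g. It read 4.96, 4.93 and 5.63 in Mn1null and 7.41, 7.48 and 7.70 in Mn1wt, a fall of -2.35 ± 0.191 (adjusted p = 7.03e-05), and its second probe set gave -3.36 and ended at 3.79 in Mn1null, under the filter level. Mn1null replicate 3 was the highest of its group for the probe set used, and still lay far below every Mn1wt value.

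Clec5a, a Tyrobp-coupled receptor of monocytes and neutrophils, read 6.66, 6.83 and 6.94 in Mn1null against 7.75, 7.88 and 7.85 in Mn1wt, a fall of -1.02 ± 0.081 (adjusted p = 6.34e-05). Clec1b, the platelet receptor for podoplanin, read 4.09, 3.93 and 4.21 in Mn1null and 4.66, 4.34 and 4.81 in Mn1wt, close to the filter level in both groups (-0.53 ± 0.130, adjusted p = 0.013). Clec7a and Clec1b were the 2 genes tested of the lectins that signal by a lone tyrosine motif of their own, and both were lower. Among all genes tested 25.6% were lower, and 2 genes are too few to describe this group. Of the 15 monocyte and macrophage markers, 9 were lower in the same arrays, from -5.69 (F13a1) to -1.29 (Lyz1), with Mrc1 passing the filter through Mn1wt alone. Fcgr4 (2.05), Adgre1 (1.11) and Itgam (0.84) were higher, and Cd68 (-0.05), Cx3cr1 (0.07) and Ms4a6c (0.16) were not called.

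Among the lectins that rose, Clec10a, a galactose-binding lectin of macrophages and dendritic cells, read 8.87, 8.80 and 8.96 in Mn1null against 6.17, 6.27 and 6.45 in Mn1wt. The difference of 2.58 ± 0.083 (adjusted p = 1.17e-06), or 5.98-fold, was the second largest rise after Siglecf. Clec2i and Clec2d, ligands of the NK receptors of the Klrb1 group, both rose. Clec2i read 10.10, 9.96 and 10.02 in Mn1null and Clec2d read 9.29, 9.04 and 9.26. In Mn1wt, Clec2i lay between 8.92 and 9.05 (mean 8.99 ± 0.064, SD, n = 3), and Clec2d read 8.12, 8.21 and 8.23. The rises were 1.03 ± 0.058 (adjusted p = 1.27e-05) and 1.01 ± 0.078 (adjusted p = 5.44e-05), and both groups of arrays stood apart for each gene. The second probe set of Clec2i rose as well, by 0.91.

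Clec4a2, an inhibitory receptor of the dendritic cell immunoreceptor group, read 6.42, 6.59 and 6.31 in Mn1null and 5.33, 5.43 and 5.38 in Mn1wt. It rose by 1.06 ± 0.076 (adjusted p = 4.06e-05), and by 0.35 on its other probe set. Clec4e, known as Mincle, the receptor for mycobacterial cord factor, rose by 0.58 ± 0.047 (adjusted p = 6.65e-05), with 9.74, 9.80 and 9.79 in Mn1null above 9.15, 9.23 and 9.22 in Mn1wt. Its partner Clec4d rose by 0.32 ± 0.051 (adjusted p = 0.00177). Clec3b, which encodes the secreted protein tetranectin, rose by 0.37 ± 0.114 (adjusted p = 0.0323), which no longer passed without any of 5 arrays.

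The genes of the Dectin-2 cluster on chromosome 6 lie in the order Clec4a3, Clec4b1, Clec4a2, Clec4n, Clec4d and Clec4e, with 1 other coding gene before Clec4b1 and 1 before Clec4n. Clec4n fell between Clec4a2 and Clec4d, which rose, and there is no other protein-coding gene between Clec4n and Clec4d. Clec4a3 was under the filter on its mean over all arrays. It read 3.07, 3.18 and 3.14 in Mn1null against 4.10, 4.36 and 4.55 in Mn1wt, and without a filter its difference of -1.21 passed (adjusted p = 1.56e-04). Clec4b1 read under the filter level in both groups. In the Dectin-1 cluster of the same chromosome, Clec1b and Clec7a fell while Clec1a and Clec12b lay under the filter level.

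The other 7 lectin genes tested did not pass, namely Clec11a (0.25), Clec16a (0.20), Clec2h (0.08), Clec2l (0.01), Clec18a (-0.05), Clec4g (-0.13) and Clec4f (-0.23), given as log2 differences. For Clec11a, a secreted growth factor of bone, the adjusted p was 0.0642, and it passed with a filter at the 50th percentile (adjusted p = 0.0449), with an intensity trend (0.0313) and without Mn1null replicate 1 (0.0243). Clec4f, the Kupffer cell lectin, had an adjusted p of 0.0671 and passed under 4 other settings and without Mn1wt replicate 3, at an adjusted p between 0.0203 and 0.0468.

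The NK lectin-like genes had low values on these arrays, with 13 of 18 under the filter. Of the 5 tested, 3 rose and 1 fell (80% of these few genes called, against 48.8% of all genes). Klrb1f, an activating receptor whose ligand belongs to the Clec2 group, read 7.47, 7.49 and 7.54 in Mn1null against 6.74, 6.91 and 6.90 in Mn1wt (0.65 ± 0.061, adjusted p = 1.36e-04), and its second probe set rose by 0.83. Klra17, a member of the Ly49 group, read 5.82, 5.64 and 5.11 in Mn1null and 4.69, 4.68 and 4.50 in Mn1wt (0.90 ± 0.175, adjusted p = 0.00448). Klrk1, the NKG2D receptor that uses Hcst, rose by 0.19 (adjusted p = 0.0199) at the filter level, at 4.24 in Mn1null and 4.05 in Mn1wt, and lost its call without any of 4 arrays. Klrg2 read 5.72, 5.50 and 5.62 in Mn1null and 6.17, 6.20 and 6.10 in Mn1wt (-0.54 ± 0.067, adjusted p = 4.89e-04), and the inhibitory receptor gene Klrg1 differed by 0.09 with overlap.

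Of 9 NK cell marker genes outside these families, Nkg7 (1.62) and Cd244a (1.21) were higher. Ncr1, a defining NK receptor, differed by -0.05, Eomes by 0.02 and perforin gene Prf1 by -0.05, and none of these 3 passed, while Gzma and Tbx21 lay under the filter level in both groups. Il2rb (0.25, adjusted p = 0.0695) and Txk (0.24, adjusted p = 0.0656) did not pass either, though the Txk values did not overlap. Among the 22 genes under the filter other than Clec4a3, differences ran from -0.25 (Klrb1a) to 0.18 (Klra1), and without a filter Klrb1a and Clec2m were called lower (adjusted p = 0.0104 and 0.0105).

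**Figure D3:**
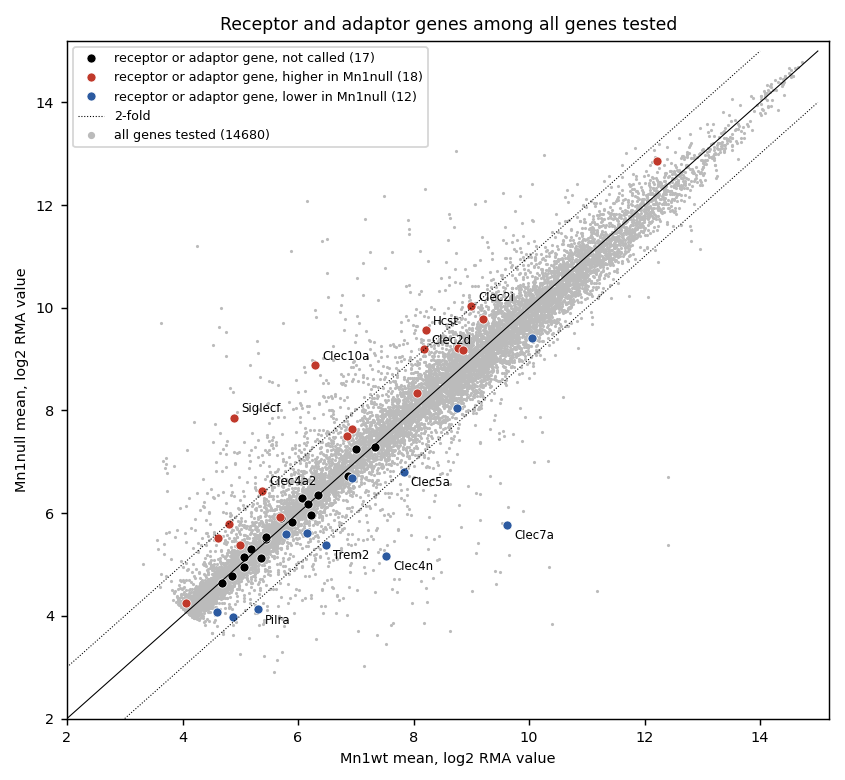
Mean log2 RMA value in Mn1null (y axis) against Mn1wt (x axis) for all 14680 genes tested (grey) and the receptor and adaptor genes (18 higher in red, 12 lower in blue, 17 not called in black); the solid line marks equal values and dotted lines 2-fold differences. Siglecf and Clec10a lie farthest above the line among the coloured genes and Clec7a and Clec4n farthest below it.

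Of the 70 genes, 21 had more than 1 probe set. For 8 of them at least 2 probe sets were called in the same direction, and for Trem2 and Treml2 some probe sets were called and others were not. The probe sets called for a gene never pointed in opposite directions, with 27.8% of all probe sets called in the same fit.

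**Figure D4:**
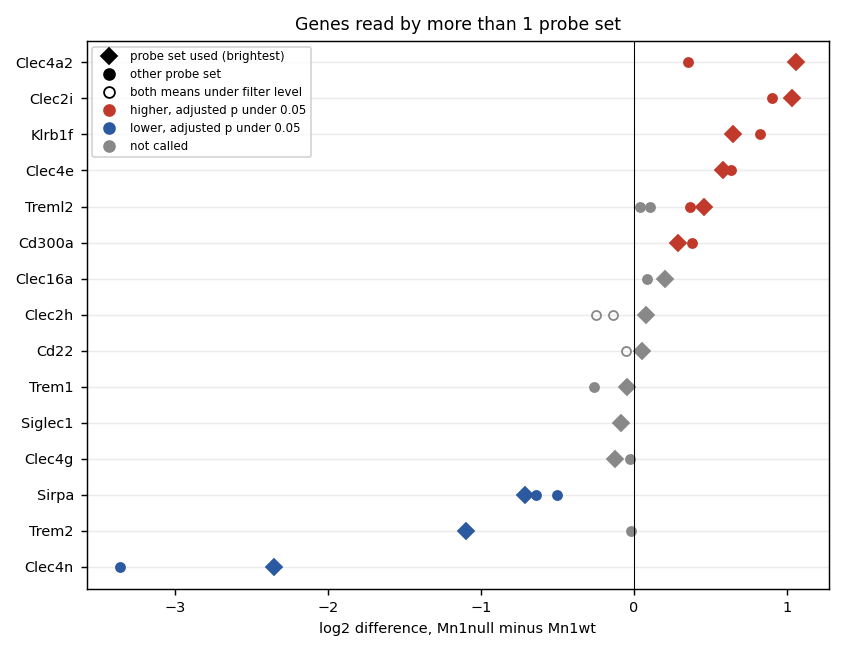
Log2 difference of Mn1null minus Mn1wt (x axis) for each probe set of genes with more than 1, where at least 1 probe set reached the filter level; diamonds are the probe sets used, circles the others, open symbols those with both means under the filter level. Clec4n fell on both probe sets, Clec2i and Klrb1f rose on both, and the probe sets of Trem2 differed, at -1.10 and -0.02.

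Genes that act with the receptors, including Fcer1g from above and the genes of ligands, moved both ways. Of 45 tested from a list of 55, 15 rose and 14 fell (64.4% called, against 48.8% of all genes), with a median of 0.03. On the activating side 12 of 26 rose and 6 fell, where 23.2% of all genes were higher and 25.6% lower. The kinase genes Tec, at 11.05 ± 0.031 in Mn1null against 9.95 ± 0.048 in Mn1wt, and Btk, at 11.51 ± 0.058 against 10.72 ± 0.026 (SD, n = 3 each), rose by 1.09 and 0.79. The transcription factor gene Nfatc1 rose by 0.68 ± 0.043, and by 0.18 when its probe sets were averaged. The adaptor gene Lat, singled out after its values were seen, rose by 2.30 ± 0.236, with 8.72, 8.64 and 8.71 in Mn1null above 6.99, 6.02 and 6.16 in Mn1wt. Lcp2, which encodes the adaptor SLP-76, fell by -0.87 ± 0.062, Pik3ap1 by -0.72 ± 0.068, Vav2 by -0.73 ± 0.100 and Plcg1 by -0.46 ± 0.061, the last not when its probe sets were averaged (-0.17, adjusted p = 0.149). Averaging gave -0.35 for Vav2 and -0.47 for Pik3ap1, both still called. Syk differed by 0.13 and did not pass (adjusted p = 0.168), but it passed with averaged probe sets (0.17, adjusted p = 0.0163) and without Mn1wt replicate 3 (0.19, adjusted p = 0.0447).

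On the inhibitory side 7 of 13 fell and 2 rose, beside 25.6% lower and 23.2% higher among all genes. Pag1, which anchors the inhibitory kinase Csk, fell by -0.91 ± 0.063, to 7.94 ± 0.012 in Mn1null against 8.84 ± 0.108 in Mn1wt (SD, n = 3 each), and by -0.27 with its probe sets averaged. The phosphatase genes Ptpn11 and Ptpn6 fell by -0.45 ± 0.058 and -0.22 ± 0.054, Dok1 by -0.43 ± 0.069 and Sla by -0.38 ± 0.054, whereas the phosphatase gene Inpp5d differed by -0.08 (95% interval -0.20 to 0.04). Dok3 rose by 0.59 ± 0.064. Sla2 rose by 0.44 ± 0.136 (adjusted p = 0.0328), a call that was lost in 4 of 6 fits leaving out 1 array (adjusted p = 0.0589 to 0.0919), and without Mn1wt replicate 1 its difference was 0.28. Of 6 ligand genes, Vim (0.14) and Sap130 (-0.24) passed narrowly, with adjusted p = 0.0325 and 0.0376, and each call was lost in 5 of 6 fits leaving out 1 array (Sap130 at -0.16 without Mn1wt replicate 3).

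**Figure D5:**
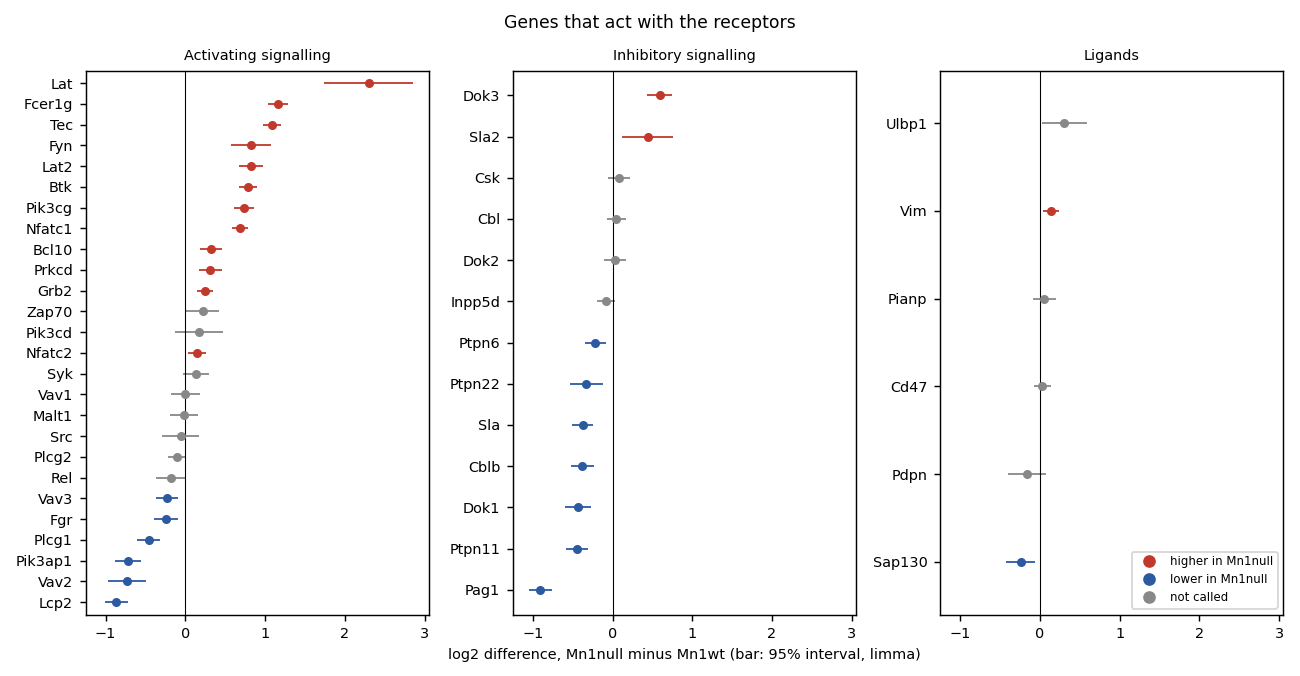
Log2 difference of Mn1null minus Mn1wt (x axis) with its 95% interval from limma for 45 genes that signal from the receptors or serve as their ligands; red marks higher, blue lower and grey not called. Fcer1g, Tec and Lat lie at more than 1 on the activating side, and 7 of the 13 inhibitory signalling genes lie left of 0 and are called.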

How the data were processed

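Each of the 6 RNA samples was read on its own Affymetrix mouse array. The authors deposited log2 values for every probe set, and the submitters' processing notes name RMA. Its version and settings: not given in the sources used here. RMA includes a normalization between arrays, so differences in total RNA are not measured. Of 45101 probe sets, 64 controls were left out; 34945 named 1 gene in the platform annotation, 932 several and 9160 none.

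The 18193 genes were represented by the probe set with the highest mean, and 14680 with a mean of at least log2 4.07 (30th percentile) were tested with limma 3.58.1 in R 4.3.3, Mn1null minus Mn1wt, 2-sided, without a block, with Benjamini-Hochberg adjustment over all genes and a threshold of 0.05. Adjusted p-values of genes are from this model unless another setting is named. Those of single probe sets come from the same model over all 45037 probe sets. The steps were tested on simulated data. The number of arrays limits the precision.

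The receptor families and lists were chosen with earlier results of these data known. Genes were named by rule: the adaptors, the 15 largest rises and the 15 largest falls called without overlap, and per family the gene with the highest mean and the 2 with the smallest p, which gave 30. The other 17 tested genes, Klrk1 and Siglecg among them, are given for completeness. Of the signalling genes, up to 4 per list and direction with the smallest p were named, with Fcer1g, Syk, Ptpn6 and Inpp5d. All 70 symbols were found in RefSeq (GRCm38.p6). Protein sequences were not used here.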

Additional observations from a re-analysis of the deposited data

How the results depend on the processing

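Across 16 alternatives, the counts of receptor genes higher (15 to 18) and lower (9 to 15) in Mn1null stayed within 1.5 times the reported 18 and 12. These alternatives were the replicate block, 2 other rules for probe sets, 2 other filters, array weights, quantile normalization on top, centring on the median, a trended robust variance, a 0.01 threshold, and 6 fits that each omit 1 array. With an array left out, receptor genes higher numbered 16 to 18 and lower 10 to 12. Of the signalling genes, 14 were lower as reported and 9 at the threshold of 0.01, which is stricter by construction. Same-numbered samples of the groups deviated together at correlations of -0.04 to 0.11, so the numbers were not read as pairs. With the replicate block, 18 receptor genes were higher, 12 lower and 6943 genes called in all, against 7170. Over 67 genes and these settings, 54 calls were lost, 14 gained and 0 reversed, out of 1055. Under the block, Treml1 (adjusted p = 0.0145) and Clec11a (0.0293) gained a call, and Siglecg (0.051), Vim (0.0582), Sap130 (0.0696) and Cd300lf (0.0776) lost theirs. Another lost call was Trem2 where probe sets reading several transcripts were dropped (adjusted p = 0.843). The called genes Clec4n, Clec4d and Klrk1 had only probe sets of that kind and so were not tested in that setting. The Mn1null values of Pilra, Sirpb1a, Clec1b and the second Clec4n probe set lay near or under the filter level.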

Other observations

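Some probe sets name several family genes at once and were therefore not assigned to a gene; 10 such probe sets hold a receptor gene of these families. Their values were examined after the others. A probe set shared by the activating genes Sirpb1a, Sirpb1b and Sirpb1c read 3.97, 3.97 and 3.93 in Mn1null against 7.15, 6.93 and 7.24 in Mn1wt, a difference of -3.15 (adjusted p = 4.78e-07 over all probe sets) that ended under the filter level. It was larger than the difference of -0.90 on the probe set that names Sirpb1a alone.

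PIR and LILR probe sets moved the other way. Of 3 shared probe sets that include the inhibitory gene Pirb and the activating genes Pira1 and Pira2, 1 read 7.12, 7.10 and 7.13 in Mn1null and 5.11, 5.39 and 5.43 in Mn1wt (1.81, adjusted p = 8.83e-06). The others rose by 0.96 and 2.22, and the one at 2.22 also names Lilra6 and predicted genes. A probe set shared by Lilr4b and Lilrb4a, the latter an inhibitory receptor gene of mast cells and macrophages, rose by 1.27 (adjusted p = 5.35e-06). It read 10.14, 10.11 and 10.11 in Mn1null against 8.89, 8.87 and 8.80 in Mn1wt, and its signal cannot be assigned to 1 of these genes. The shared PIR probe sets each name several genes, so their signal cannot be assigned to Pirb or to the Pira genes. The probe set for Pirb alone differed by 0.23 without passing. A probe set shared by Clec4b1 and Clec4a2 rose by 1.05 (adjusted p = 1.23e-04), next to 1.06 on the brightest probe set of Clec4a2. The 4 shared probe sets of NK lectin-like genes differed by -0.12 to 0.18 with groups that overlapped.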
